A study of Caenorhabditis elegans with 6 samples.

Results

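The fbxa (F-box A) genes of Caenorhabditis elegans were taken as every row of the deposited table whose public name is fbxa- followed by a number, which gave 197 of 20422 genes. Whole sterile adults of 2 genotypes had been compared, with 3 samples of each. The controls carried mes-1(bn84ts), a temperature-sensitive allele that can leave worms without a germline. The other group carried daf-2(e1370), which weakens the worm's insulin-like receptor, together with the same mes-1 allele. The 2 groups are called the single mutant (mes-1) and the double mutant (daf-2; mes-1) below, and all fold changes are double over single mutant. Per the labels, embryos were laid at 24°C, kept at 15°C from day 1, and the adults were returned to 24°C on day 5. On day 6, 100 adults with no visible embryos were picked for each sample, so every sample pools animals that were judged sterile by eye. The labels number the samples but do not say that they came from separate cultures, so p-values reflect only how far these samples differ, and that variation may be technical.

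F-box proteins are the substrate-recognition subunits of SCF ubiquitin ligases. The F-box binds a Skp1-related adaptor (the skr genes in C. elegans), which binds a cullin scaffold, and the rest of the F-box protein holds the target that is to be ubiquitinated and usually degraded. C. elegans has an unusually large set of F-box genes, most of them in nematode-specific families that lie in tandem clusters, and the targets of most fbxa proteins are not known. A few members, among them fbxa-75, fbxa-158 and fbxa-182, are known from the transcriptional response of worms to intracellular pathogens.

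The deposited table held a mean normalized count over all 6 samples, the authors' DESeq2 fold change with its adjusted p, and 1 RPKM value per genotype (reads scaled by gene length and library size), but no value for a single sample. For genes with a mean under 10 the whole reads of each library could be recovered from the 9 decimals of the mean, because such means are sums of whole multiples of 6 steps. The recovered libraries are named a, b and c within each genotype, since their replicate numbers are unknown. Relative to the shallowest library, double mutant c, the depth was 3.06, 1.47 and 1.41 in single mutant a, b and c, and 2.37 and 1.83 in double mutant a and b. Single mutant library a stood apart. Of 4430 genes with a mean from 1 to under 10, 53 had more than 75% of their normalized reads in it, against 0 to 3 in each of the other libraries. The germline gene pgl-3 had 22.4, 0 and 0 normalized reads in single mutant a, b and c, and 3.61, 1.87 and 0 in double mutant a, b and c. None of the 64 fbxa members in that range of means was among the 53 genes. With 53 of 4430 genes over the cut, few or no members would be in any case. Just under the cut lay fbxa-215, with 23.0 normalized reads in library a, 5.82 in single mutant b and 2.17 in double mutant a. The part of this library in the members' results could be computed only for members with recovered reads. Their sums and counts, and the values of some of them, are given with and without it. The other members are given with it only.

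Most fbxa genes were present at low levels in sterile adults of both genotypes. No read fell on 31 members, and 102 more had reads, with means of at most 5.57, but no adjusted p in the authors' deposited table. The other 64 members, with means from 6.53 to 189.4, received one. Per gene length, the RPKM values of the authors' deposited table had a median of 0.645 in the single and 0.466 in the double mutant over all 197 members, beside 1.95 and 1.83 over all genes. An RPKM of at least 10 in either genotype was reached by 20 members (10.2%) and by 29.7% of all genes. In whole animals, fewer cells of a type and less RNA per cell cannot be told apart.

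Of the fbxa genes, 2 fell in the double mutant, and the values of the rest lay on both sides of 0. DESeq2 called fbxa-72 and fbxa-60 lower at an adjusted p under 0.05 in the authors' deposited table, and no member was called higher. This was 2 of 64 members, beside a background of 10.3% of the 9820 genes with an adjusted p (6.35% lower and 3.92% higher). The members had low counts, and calls were rarer there: among all genes the share called was 3.53% at means from 5 to under 10, 6.29% from 10 to under 20, 6.63% from 20 to under 40 and 11.9% from 40 to under 200. Of the members in those ranges, 0 of 16, 0 of 28, 1 of 12 and 1 of 8 were called. The median log2 fold change of the 64 members was 0.03 in the authors' deposited table, with 33 positive and 31 negative values, beside -0.03 as the median over all genes that had one. At an unadjusted p under 0.05, bounded from the adjusted values, 9 of the 64 members were higher and 7 lower. Over all 9820 genes 764 were higher and 999 lower, a background of 7.78% and 10.2%. The bound is an upper limit on p, so all of these counts are minima.

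**Figure D1:**
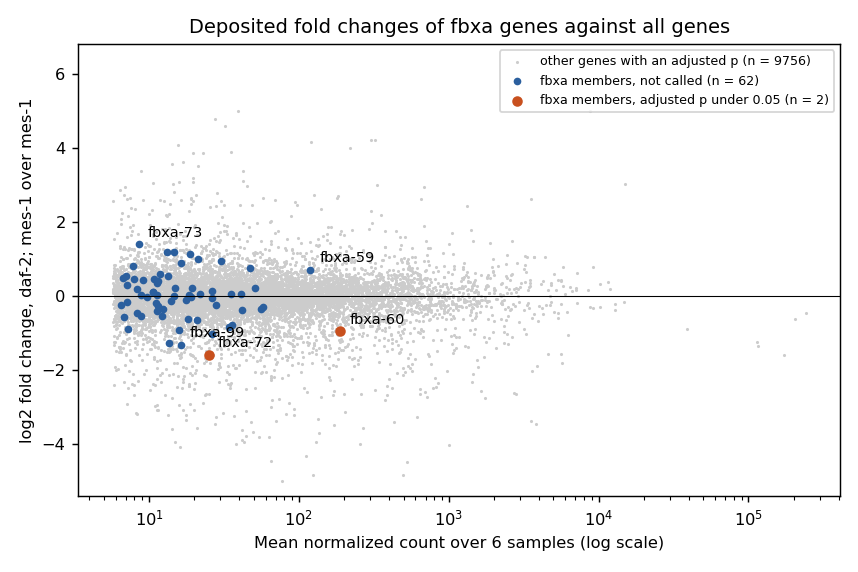
Deposited log2 fold change (double over single mutant) against the mean normalized count over 6 samples on a log scale; grey points are other genes, blue points fbxa members that were not called, and orange points members with an adjusted p under 0.05. The 64 members lie between -1.58 and 1.40 around 0, at the low end of the count range.

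The larger of the called changes was that of fbxa-72 (WBGene00017962, F31F4.15), an F-box gene on the reverse strand of chromosome V from 674912 to 676754 in the coordinates of the table, for which the sources used here name no genome build. The authors' deposited table put it at 14.6 RPKM in the single and 4.03 RPKM in the double mutant. By DESeq2 in the authors' deposited table it fell 3.00-fold, a log2 value of -1.58 with an adjusted p of 0.00379, and the adjusted p implies a standard error of at most 0.43 on the log2 scale. None of the 4 genes on either side of it is an fbxa gene. For the 2 of them with an adjusted p, nhr-180 and F31F4.1, the authors' deposited table listed log2 values of -0.19 and -0.13, neither called.

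The other called member, fbxa-60 (WBGene00020456, T12B5.10), was also the most abundant one in the single mutant. It lies on the reverse strand of chromosome III from 944769 to 946281. The authors' deposited table put it at 90.8 RPKM in the single and 45.3 RPKM in the double mutant. By DESeq2 in the authors' deposited table it fell 1.92-fold, a log2 value of -0.94 with an adjusted p of 0.0048, with an implied standard error of at most 0.26. Its mean count was too high for the reads of single libraries to be recovered, as was that of fbxa-72, so neither can be given without single mutant library a.

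The labelled whole animals were checked against markers of their tissues. Genes of intestine (elt-2, ges-1), muscle (unc-54) and neurons (rab-3) were present, at 15.5, 149, 395 and 14.0 RPKM in the single mutant per the authors' deposited table. Of the 9 markers of these 3 tissues, ifb-2 (intestinal filament) fell, at -3.49, and myo-3 (muscle myosin) and snb-1 (synaptobrevin) rose, at 0.93 and 0.64, on the log2 scale of the authors' deposited table. Of the hypodermis markers, dpy-7 and rol-6 were at 0 RPKM in the single mutant and at 0.264 and 0.0878 RPKM in the double mutant in the authors' deposited table, close to absent. Of the sperm markers msp-3 had no reads, and spe-9 had 0.147 and 0.420 RPKM in the authors' deposited table, with reads in all 6 libraries. All 5 germline markers were low but above 0 and had the lower RPKM in the double mutant, with summed values of 16.7 and 8.81 RPKM per the authors' deposited table, and none was called. On the log2 scale of the authors' deposited table glh-1 stood at 0.14 and the other 4 below 0. For pgl-3 and nos-1, whose reads were recovered, every single mutant read was in library a. The normalized reads of nos-1 were 5.04, 0 and 0 in single mutant a, b and c, and 2.17, 0 and 0 in double mutant a, b and c. Leaving out single mutant library a turned the direction of pgl-3 and nos-1. Of 4 eggshell genes, perm-2 and perm-4 fell in the double mutant, at -0.81 and -1.02 on the log2 scale with adjusted p-values of 0.00115 and 0.000297 by DESeq2 per the authors' deposited table. Both were abundant in both genotypes. From single to double mutant, perm-2 went from 2008 to 1134 RPKM and perm-4 from 1392 to 674 RPKM in the authors' deposited table. The other eggshell genes, egg-1 and cbd-1, had no adjusted p and went from 6.87 to 0.776 and from 15.3 to 2.70 RPKM in the authors' deposited table. Their deposited log2 values were -0.50 and -0.66, at means of 17.5 and 101.8. Both means lay above 6.53, the lowest mean of an fbxa member with an adjusted p. Why egg-1 and cbd-1 had none was not tested. The part of germline or eggshell-forming cells in the fall of fbxa-72 and fbxa-60 was not tested.

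The neighbour of fbxa-60, fbxa-59 (WBGene00020455, chromosome III from 940868 to 943447), had a value in the other direction. It stood at 38.5 RPKM in the single and 64.8 RPKM in the double mutant, and DESeq2 gave 0.71 on the log2 scale with an adjusted p of 0.1, not called, all per the authors' deposited table. By these RPKM values fbxa-60 was the most abundant member of the single mutant and fbxa-59 of the double mutant. The RPKM of the pair summed to 129.3 and 110.1 in the single and double mutant, 19.7% and 18.1% of the RPKM of all members. The family total was 656.8 and 607.02. Whether near-identical members share reads was not checked.

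Behind these 2 genes, fbxa-55, fbxa-98, fbxa-156 and fbxa-182 had the highest RPKM, and none was called. For fbxa-55, the authors' deposited table listed 24.2 RPKM in the single and 12.7 in the double mutant. The values of fbxa-98 there were 13.4 and 23.5 RPKM, higher in the double mutant, in the authors' deposited table. Those of fbxa-156 were 22.2 and 17.8 RPKM in the authors' deposited table. On the log2 scale the authors' deposited table listed -1.02, 0.76 and -0.29 for the 3 genes. Of the 20 members with an RPKM of at least 10 in either genotype, 7 had the higher value in the double and 13 in the single mutant.

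**Figure D2:**
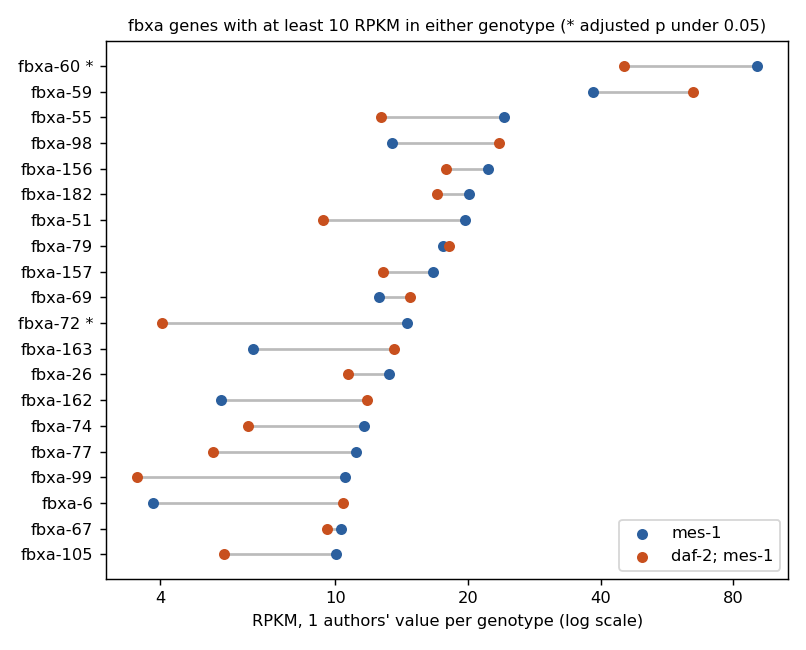
The authors' RPKM per genotype on a log scale for the 20 members with at least 10 RPKM in either genotype; blue points are the single mutant, orange points the double mutant, and an asterisk marks an adjusted p under 0.05. The pair fbxa-60 and fbxa-59 stands above the rest and changes order between the genotypes, and fbxa-72 has the widest gap of the 20.

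Several members lay near the threshold without reaching it. Among members with an adjusted p, the lowest values that were not called belonged to fbxa-99, fbxa-14 and fbxa-55, at -1.31, -1.28 and -1.02 on the log2 scale, and by DESeq2 their adjusted p-values were 0.0574, 0.0965 and 0.099 per the authors' deposited table. The exons of fbxa-99 overlap oac-20 on the opposite strand. For oac-20 DESeq2 gave a log2 value of -4.46 and an adjusted p of 6.65e-20 per the authors' deposited table. The libraries did not mark strand, so reads within the stretch shared by the 2 genes cannot be told apart. How much of fbxa-99 lies in that stretch was not computed. The highest such values belonged to fbxa-73, fbxa-161 and fbxa-135, at 1.40, 1.20 and 1.17 on the log2 scale, with adjusted p-values of 0.0961, 0.159 and 0.137 by DESeq2 per the authors' deposited table. Of these, fbxa-161 is annotated as a pseudogene in the WBcel235 gene models. Among all genes with a mean from 10 to under 20, where 28 of the members lay, the smallest absolute log2 fold change that was called was 1.27. In that range fbxa-99 and fbxa-14, with means of 16.3 and 13.6, exceeded that size without being called. At means from 5 to under 10 the smallest called size was 1.55, and no member with an adjusted p reached it there. What size of change these libraries could detect was not tested.

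Reads per library were recovered for all 118 members with a mean above 0 and under 10, which include 16 members with an adjusted p and the 102 without. Of these, 37 had at most 3 reads over the 6 libraries. Their normalized reads summed to 326.4, 292.3 and 271.2 in single mutant a, b and c, and to 279.7, 307.8 and 215.7 in double mutant a, b and c. The means were 297 ± 27.8 and 268 ± 47.2 (SD, n = 3 each), a ratio of 0.903, and the ranges of the genotypes overlapped. The same ratio over all 8227 genes with recovered reads was 0.947. Without single mutant library a the ratio was 0.95 for the members and 1.03 for all such genes, where the direction turned.

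Among the 56 low members with at least 10 reads, the 3 libraries of one genotype lay fully above those of the other for 4 members that were higher and 6 that were lower in the double mutant. Over all 3825 genes with as many reads the background was 9.1% higher and 9.2% lower, and the members' total of 10 (17.9%) lay beside 18.3% of all such genes. Without single mutant library a, 14 members were apart (25%), beside 28.4% of all such genes. A single gene in 3 against 3 libraries cannot go below an exact two-sided permutation p of 0.1, which each of the members named in the next 2 paragraphs as not overlapping reached. These members were chosen after their values were seen.

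The members that were apart in the upward direction were fbxa-73, fbxa-48, fbxa-165 and fbxa-101. For fbxa-73 (chromosome III, 2253439 to 2254772) the normalized reads were 4.48, 2.33 and 3.63 in single mutant a, b and c, and 10.1, 16.8 and 13.7 in double mutant a, b and c. All 3 double mutant libraries lay above the single mutant, with means of 3.48 ± 1.08 and 13.6 ± 3.36 (SD, n = 3 each), a 3.89-fold difference. The fold change in the authors' deposited table was smaller, 2.64-fold. For fbxa-48, whose exons overlap fbxa-9 on the opposite strand, the reads were 7.28, 1.16 and 6.05 in the single and 10.1, 12.2 and 10.3 in the double mutant. The 3 double mutant values were close together and the single mutant values were not. For fbxa-165 there were 0, 0 and 2.42 normalized reads in the single and 13.0, 3.74 and 3.42 in the double mutant. Double mutant library a held most of the reads of fbxa-165, and the values in the other 2 were near the highest single mutant value. For fbxa-101 the reads were 2.24, 1.16 and 1.21 in the single and 5.06, 2.81 and 3.42 in the double mutant.

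In the downward direction, fbxa-53, fbxa-209, fbxa-86 and fbxa-208 had the largest differences of means among the members whose libraries did not overlap. For fbxa-53 (chromosome X, 1716428 to 1718563) the normalized reads were 8.96, 11.6 and 6.05 in single mutant a, b and c, and 1.45, 1.87 and 3.42 in double mutant a, b and c. The means were 8.89 ± 2.8 and 2.25 ± 1.04 (SD, n = 3 each), a 3.96-fold difference, and 3.94-fold without single mutant library a. For fbxa-209, whose exons overlap Y36E3A.2 on the opposite strand, the means were 10.2 ± 1.65 and 4.29 ± 1.98 (SD, n = 3 each). For fbxa-208, whose exons overlap fbxa-78 on the opposite strand, they were 4.86 ± 0.953 and 1.19 ± 1.04 (SD, n = 3 each). Of 16 reads of fbxa-86, whose exons overlap str-153 on the opposite strand, 12 were in single mutant library a, 1 in b and 3 in c, and none was in the double mutant. Against a floor of 3 reads over the 3 double mutant libraries, fbxa-86 was at least 3.89-fold lower in the double mutant. That bound rests on single mutant library a, which held 6.72 of its normalized reads, against 1.16 and 3.63 in b and c. The single mutant mean of 3.84 normalized reads was 2.40 without that library. The other 2 members of this kind were fbxa-21, a pseudogene in the WBcel235 gene models, and fbxa-15, whose exons overlap fbxa-19 on the opposite strand. For fbxa-21 the lowest single mutant value was 1.68 and the highest double mutant value 1.45 normalized reads. For fbxa-15 they were 3.63 and 3.61. Both gaps were smaller than the worth of 1 read, which ran from 0.56 to 1.71 normalized reads by library. The largest downward difference of means among all low members was that of fbxa-215, at 23.0, 5.82 and 0 normalized reads in single mutant a, b and c, and 2.17, 0 and 0 in double mutant a, b and c. Its genotypes overlapped, and without single mutant library a its single mutant mean went from 9.59 to 2.91.

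**Figure D3:**
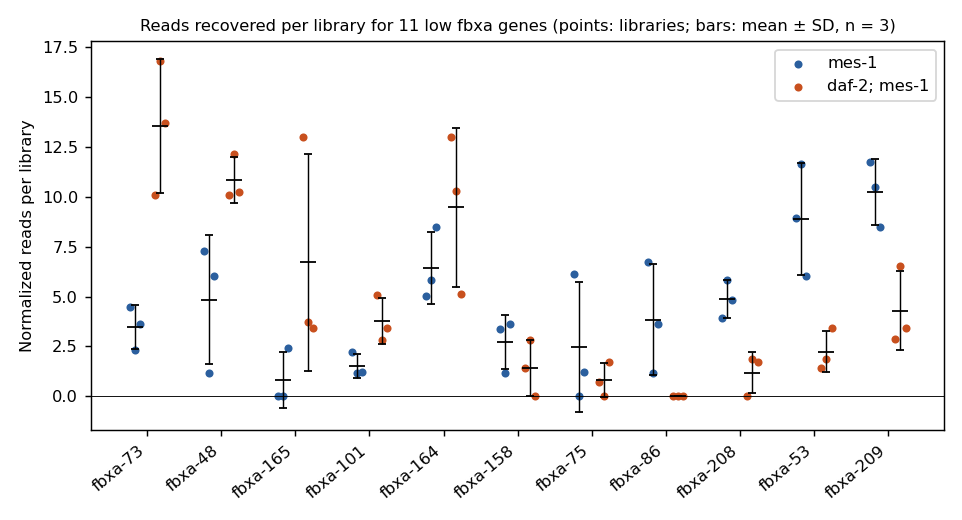
Normalized reads per recovered library for 11 low members; points are libraries (blue single mutant, orange double mutant), and bars show the mean and SD of 3 libraries. For fbxa-73 the double mutant libraries lie at 10.1 to 16.8 and the single mutant libraries at 2.33 to 4.48, whereas fbxa-75 has 1 high library, single mutant a.

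Of the 3 members known from the intracellular pathogen response, fbxa-182 had an adjusted p and was not called, and fbxa-158 and fbxa-75 had none. For fbxa-182 the authors' deposited table listed 20.1 RPKM in the single and 17.02 RPKM in the double mutant, and a DESeq2 log2 value of -0.34 with an adjusted p of 0.766. For fbxa-158 the normalized reads were 3.36, 1.16 and 3.63 in single mutant a, b and c, and 1.45, 2.81 and 0 in double mutant a, b and c, so the genotypes overlapped. For fbxa-75 they were 6.16, 0 and 1.21 in the single and 0.723, 0 and 1.71 in the double mutant. The mean of fbxa-75 was 2.46 in the single and 0.811 in the double mutant, but 0.605 in the single mutant without library a, which turned the direction. The 22 pals genes with a mean under 10, a family that marks the same response, summed to 147.8 normalized reads in that library and to between 22.3 and 43.6 in each of the others.

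Of the partners of F-box proteins, the adaptor gene skr-4 rose in the double mutant. It was the single call among the 14 SCF core genes (skr genes, cullin and RING subunits) with an adjusted p, out of 24 on that list. That was 7.14% of the 14, beside 10.3% called over all genes with an adjusted p. The authors' deposited table put skr-4 at 116 RPKM in the single and 246 RPKM in the double mutant, a DESeq2 log2 value of 1.03 with an adjusted p of 0.00109. For its relative skr-5 DESeq2 gave 1.40 with an adjusted p of 0.0588 per the authors' deposited table, which was not called. The cullin gene cul-6, which acts with these adaptors in the pathogen response, had -0.66 with an adjusted p of 0.465 by DESeq2 per the authors' deposited table. The general subunit genes cul-1, rbx-1 and skr-1 stood at log2 values of -0.03, 0.17 and -0.03 per the authors' deposited table, uncalled. The pathogen response list holds the pals genes, cul-6, skr-3, skr-4, skr-5 and the members fbxa-75, fbxa-158 and fbxa-182. It shares genes with the SCF core list, and skr-4 counts as a call on both. On the pathogen response list, 3 of 20 genes with an adjusted p were called, all higher, beside the background of 10.3% called and 3.92% called higher. Of the 20 genes 11 had positive and 9 negative values, with a median of 0.21, and the median was -0.26 when genes lacking an adjusted p were included, on the log2 scale of the authors' deposited table. The 3 called genes were pals-26 (B0284.1 in the table) at 1.48, pals-23 (C29F9.3) at 0.99 and skr-4, on the log2 scale of the authors' deposited table.

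Other F-box and adaptor families are given for comparison, and no difference between families was tested. The background for their counts was 10.3% of all genes with an adjusted p, 3.92% called higher and 6.35% called lower. Of 110 fbxb genes 81 had no reads, and the 1 with an adjusted p was not called. Of 54 fbxc genes 9 had an adjusted p, and fbxc-7 was called higher, from 0.329 to 3.66 RPKM, with 2.16 on the log2 scale and an adjusted p of 0.00416 by DESeq2 per the authors' deposited table. Among 9 F-box genes with names of their own, 6 had an adjusted p and mfb-1, the homologue of a muscle-atrophy F-box gene of mammals, was called higher at 1.16 with an adjusted p of 0.000781 by DESeq2 per the authors' deposited table. Of 33 genes with an adjusted p among the MATH and BTB genes, a list of bath, math and btb genes with cul-3, of which proteins with a BTB domain can serve as adaptors of CUL-3 ligases, 2 were called higher and 4 lower. The largest changes there were those of math-14 and math-45, with log2 values of -2.66 and -2.14 per the authors' deposited table.

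The family lay mostly on 2 chromosomes. Chromosome V held 78 members and chromosome III 68, together 74.1% of the family beside 38.3% of all genes of the table. Chromosomes II, X, I and IV held 19, 17, 9 and 6. With members joined where they lay within 50 kb of each other, 152 members fell into 30 groups of at least 2, and 45 stood alone. This distance was chosen with the data in view. Neighbouring members are not independent of each other.

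The values of the members differed between the chromosomes and within the groups. An adjusted p was given for 34 of 68 members on chromosome III, but for 18 of 78 on chromosome V and 1 of 17 on X. Over all chromosomes 32.5% of the members and 48.1% of all genes had one. The same shares and medians were not computed for all genes of each chromosome. Whether the differences are particular to the family was therefore not tested. On chromosome III the members with an adjusted p had 18 positive and 16 negative log2 fold changes, with a median of 0.03. On chromosome V there were 7 positive and 11 negative ones, with a median of -0.33, and on chromosome II 6 positive and 3 negative ones, with a median of 0.42, all per the authors' deposited table. The largest group held 31 members over 147.7 kb of chromosome III, from fbxa-21 to fbxa-138. Of its 17 members with an adjusted p, 11 had positive and 6 negative values, none was called, and they ran from -1.28 (fbxa-14) to 0.89 (fbxa-37) in the authors' deposited table.

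Within the group of 11 members around fbxa-60, the fold changes differed from gene to gene. Of its 6 members with an adjusted p, fbxa-55, fbxa-60 and fbxa-51 stood at -1.02, -0.94 and -0.83, fbxa-59 at 0.71, and fbxa-67 and fbxa-54 at -0.05 and 0.12 on the log2 scale of the authors' deposited table. All but fbxa-60 missed the threshold.

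A group of 9 members on chromosome II, from fbxa-161 to fbxa-160 over 18.1 kb (1606597 to 1624679), opened with 5 genes of positive values, and it was singled out after they were seen. The authors' deposited table put fbxa-161 at 2.87 RPKM in the single and 8.41 RPKM in the double mutant. The levels of fbxa-162 were 5.50 and 11.8 RPKM in the authors' deposited table. Those of fbxa-163 were 6.50 and 13.6 RPKM, also in the authors' deposited table. On the log2 scale these 3 genes stood at 1.20, 0.99 and 0.96 with adjusted p-values of 0.159, 0.151 and 0.185 by DESeq2 per the authors' deposited table, so none was called. The next gene, fbxa-164, had 5.04, 5.82 and 8.47 normalized reads in single mutant a, b and c and 13.0, 10.3 and 5.14 in double mutant a, b and c, with overlapping ranges. It was followed by fbxa-165, described above, and then by fbxa-166, fbxa-158 and fbxa-159, at -0.50, -0.37 and -0.16 on the log2 scale of the authors' deposited table, from 3, 15 and 1 reads in all. The last member, fbxa-160, had no reads.

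**Figure D4:**
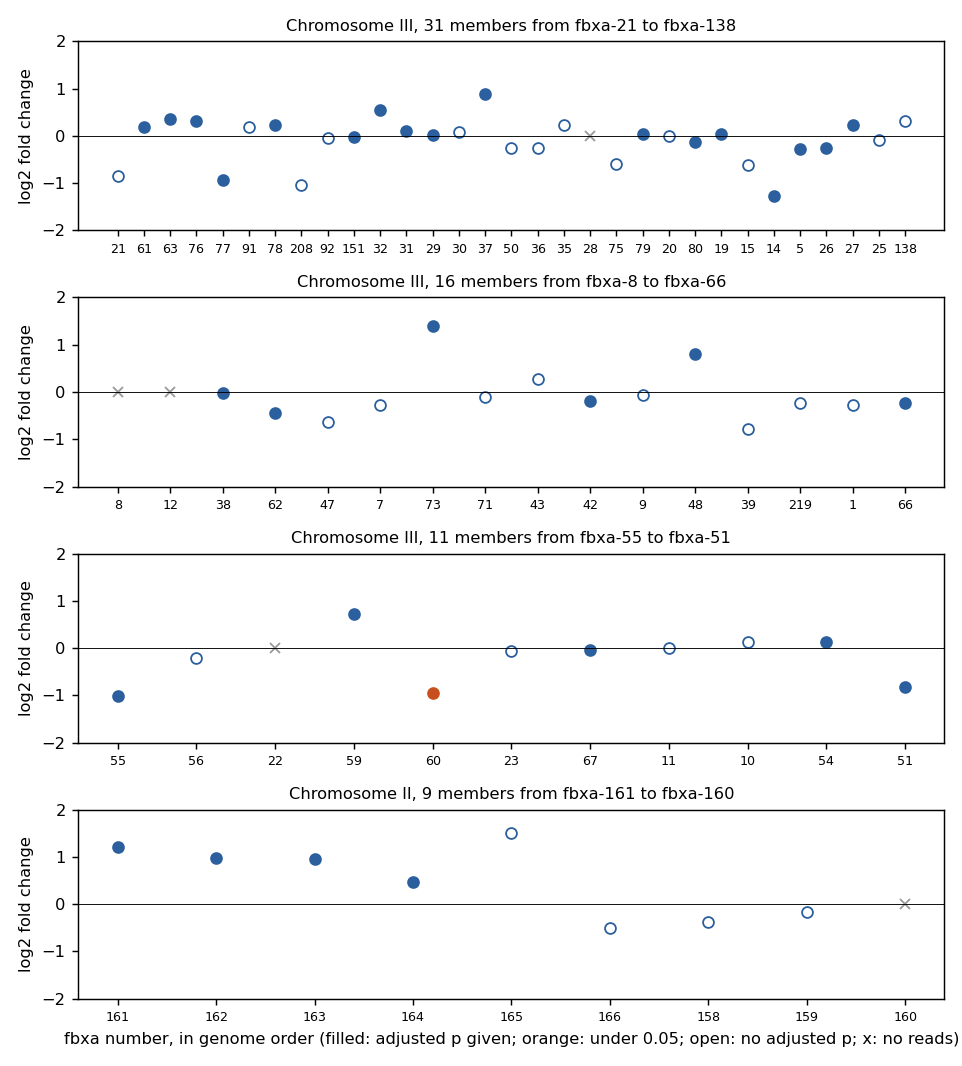
Deposited log2 fold changes of the members of the 4 largest groups in genome order; filled points have an adjusted p, the orange point (fbxa-60) is under 0.05, open points have no adjusted p and crosses mark members with no reads. Values of both signs lie beside each other on chromosome III, and the first 5 members of the chromosome II group lie above 0.

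In the WBcel235 gene models 170 members are protein-coding and 27 are pseudogenes. Of the pseudogenes 3 had an adjusted p, beside 61 of the protein-coding members. The highest RPKM of a pseudogene was 11.8, that of fbxa-162 in the double mutant, and of a protein-coding member 90.8 (fbxa-60), in the authors' deposited table. Exons of 18 members overlap another gene of the table on the opposite strand, 7 of them with an adjusted p, and neither called member is among them.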

How the data were processed

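Ribosomal RNA was removed from total RNA before library preparation, per the labels' protocols, and the library kit named there keeps no strand. The submitters' processing notes name TopHat2 and DESeq2 with no version, and the file headers name Cuffdiff2. Aligner settings, annotation and build were not found in these sources. The deposited signal is the mean of the authors' DESeq2-scaled counts over the 6 samples, per the file headers. The deposited log2 fold changes and Benjamini-Hochberg adjusted p-values are the authors' DESeq2 results, per the file headers, and the RPKM values are the authors' Cuffdiff2 values per genotype. A test of counts had been planned if the table held samples; it does not, so calls are the authors' own at an adjusted p under 0.05, with no new test across genes. The authors' deposited DESeq2 fold changes were smaller than the ratio of recovered reads for fbxa-53 (2.51-fold against 3.96-fold) and fbxa-73 (2.64-fold against 3.89-fold).

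Unadjusted p-values were bounded by inverting the adjustment over 9820 genes, and the standard error implied by that bound is a normal approximation. Whole reads per library were solved from means under 10. Of 8228 such genes 8227 had 1 solution, and of 365 simulated means all 365 were recovered correctly. The simulated means were made with the same steps that solved them. They therefore cannot show an error in the steps or in the genotype given to each step. Normalized reads are reads times the worth of 1 read in that library. Floors cover counting error only. Of 118 low members, 110 had the direction of their RPKM values. Other families were matched by table name or present symbol. Biotypes and exon overlaps came from Ensembl release 115 gene models by gene ID. Python 3.11.15, pandas 2.3.3, numpy 2.4.6 and scipy 1.17.1 were used.

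Named genes were the called members, the 6 with the highest RPKM, fbxa-75, fbxa-158 and fbxa-182, the 3 highest and 3 lowest fold changes not called, the 2 adjusted p-values just above the threshold, and up to 2 called genes per related list. Others were named after their values were seen. The members and lists were chosen with earlier results of these data known. Planned comparisons of proteins and promoters were not run.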

Additional observations from a re-analysis of the deposited data

How the results depend on the processing

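The fbxa count of 2 calls was the same at an adjusted p under 0.01, with a mean of at least 10 and without members overlapping a gene on the opposite strand. It was 7 at an adjusted p under 0.1 (2 higher, 5 lower, beside 12.2% of all genes), and 1 each with a mean of at least 50 (fbxa-60) and with a log2 value of 1 or more in size (fbxa-72). For the settings other than 0.1 the share over all genes was not computed, so these counts have no background. The median log2 fold change of the members, 0.03, lay on either side of 0: it was -0.0211 as an RPKM ratio with a pseudocount of 0.1, -0.0176 with 1 and -0.0107 with 5, and -0.0348 when members lacking an adjusted p were included. The cause was not tested. For each of the 14 named members the RPKM values had the direction of the deposited fold change. A pseudocount cannot turn the direction of a ratio, so the 3 pseudocounts add no further check of direction. The RPKM values also come from the same 6 samples as the fold changes. At an adjusted p under 0.01 the MATH and BTB calls went from 6 to 3, where the share over all genes was again not computed. Under 0.1 the SCF core calls went from 1 to 2 and the pathogen response calls from 3 to 5, beside the 12.2% of all genes. With each recovered library left out in turn, a choice made after seeing the data, the ratio of summed reads of low members ranged from 0.835 to 0.99. The number of low members whose libraries did not overlap ranged from 14 to 17 in place of 10, and fewer libraries overlap less often by construction. The share over all genes was computed only without single mutant library a, at 28.4% beside 25% of the members. Without single mutant library a, 13 of 118 low members changed direction. No paired analysis was possible because no value of a numbered sample was used here. Leaving out samples in the calls, another count test, protein identity and promoter motifs were not run. At this depth 102 members with reads have no adjusted p, and the implied standard error had a median of 0.50 over the 64 that do, beside 0.37 over all genes.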
